A study of Mus musculus with 8 samples.

Results

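Long intergenic noncoding RNAs (lincRNAs) are transcripts from stretches of the genome between protein-coding genes. The Agilent mouse array used here carried probes against such stretches. Each was named by chromosome, start, end and strand, with no gene name. Of the 55681 non-control probes on the array, 16181 (29.1%) carried a name of this kind with the strand suffix F or R, and all of them are described here. They covered 3540 regions of mouse genome build mm9, 1251 probed on F alone, 1222 on R alone and 1067 on both strands, giving 4607 region strands with 1 to 10 probes each. F and R are taken here as the 2 strands, as the array's names give them. The files hold no annotation of mm9 and no probe sequence, so whether a region is intergenic, and which transcript it belongs to, was not examined. The probes are therefore called region probes.

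RNA came from hand-picked islets of 4 β-CB1R+/+ and 3 β-CB1R−/− male C57BL/6 mice on a standard diet. Both groups carried Cnr1 flox/flox, the floxed gene of the cannabinoid 1 receptor, and received a short course of daily tamoxifen injections. In β-CB1R−/− mice tamoxifen activated Cre recombinase (MIP-Cre/ERT+), driven by the mouse insulin promoter and so directed at beta cells, while the littermate β-CB1R+/+ mice lacked it (MIP-Cre/ERT−). The sample labels call the animals CB1 KO and WT and speak of a global knockout. Ages of the array mice are not given in the sources used here. Each mouse was hybridised to 1 array, except β-CB1R−/− mouse 2, whose 2 repeat arrays were averaged. The p-values below measure the spread between these mice.

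Many lincRNAs are found at low copy number, act in or near the nucleus and are more restricted to particular cell types than mRNAs. Some regions give transcripts from both strands. Fos, used below as a second axis, is an immediate-early gene, one of a group induced within minutes of a stimulus, including the stress of tissue handling.

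Levels are log2 processed signals scaled to the array's own 75th percentile, so that 0 is that percentile. Arrays had 33314 to 39994 probes well above background, the scanner software's call used here as detection, and no saturated spot. The 2 repeat arrays differed in this respect, with 57.8% and 44.0% of region probes detected. All 8 arrays lay on 1 slide, with each genotype in its own positions, so that genotype and position cannot be told apart. The Cnr1 probe read −1.11, −0.77, −0.53 and −0.02 in β-CB1R+/+ mice 1 to 4 and −2.30, −3.13 and −2.28 in β-CB1R−/− mice 1 to 3. The groups were apart on this probe, and its place relative to the deleted part is not given. All 8 beta cell markers were detected on every array, with list means of 6.00 to 6.61, and so were 11 acinar cell markers, with list means of 9.25 to 10.4. The RNA was a mixture of cell types, and in such a mixture fewer cells of a type and less RNA per cell cannot be told apart.

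Region probes were detected less often than probes for RefSeq mRNAs. The share of region probes detected was 46.4%, 52.1%, 53.6% and 51.9% in β-CB1R+/+ mice 1 to 4 and 60.1%, 50.9% and 50.2% in β-CB1R−/− mice 1 to 3. For the 26695 mRNA probes (accession prefix NM_) it ran from 71.4% to 80.7% over the same mice. The share of region probes was lower in 7 of 7 mice, with a mean difference of −24.6 ± 2.00 percentage points (SD, n = 7 mice; exact sign-flip test over mice, two-sided, p = 0.0156, the smallest this test can give). Probe design and spot number differ between the classes, and their part in this gap was not tested. The difference was −9.28 points with the software's less strict flag for a positive and significant signal, and −10.5 points with the 95th percentile of the negative controls as the limit. With only the brightest probe of each region strand, which takes the best of up to 10 probes, the region share was 2.77 points higher and was lower in 0 of 7 mice.

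Against RefSeq noncoding RNAs the gap was small. The 1472 noncoding probes (prefix NR_) were detected at 45.9% to 61.2%, and the region share was lower in 6 of 7 mice, with a mean difference of −1.70 ± 1.13 points (SD, n = 7; exact sign-flip test, two-sided, p = 0.0312). The direction turned with the other limits, to 1.03 points higher with the positive and significant flag and 0.64 points higher with the negative controls.

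**Figure D1:**
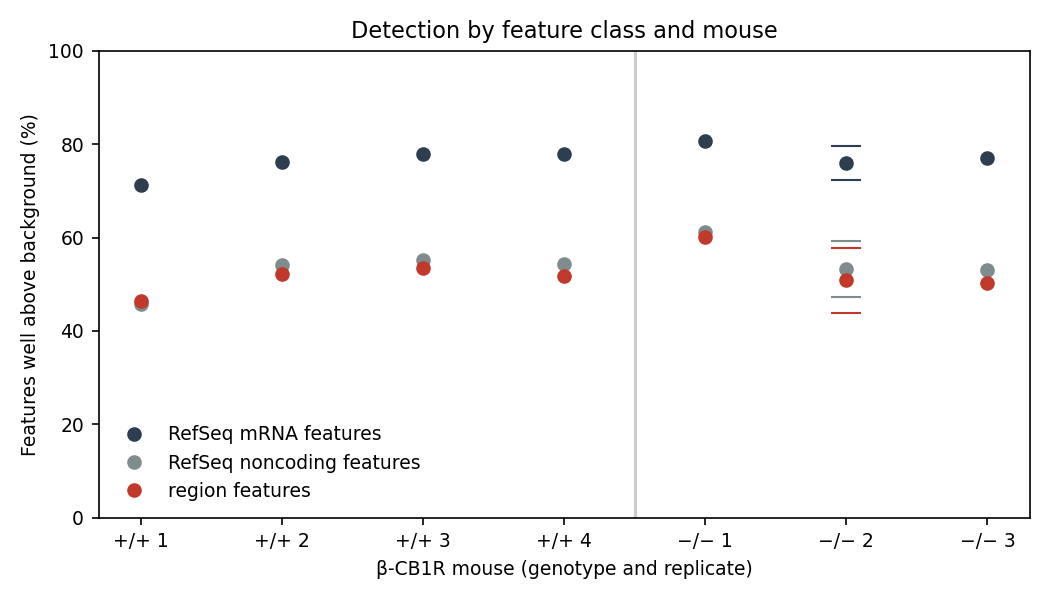
Share of probes well above background (percent, y axis) in each mouse (x axis) for region probes, RefSeq mRNA probes and RefSeq noncoding probes. For β-CB1R−/− mouse 2 the point is the mean and the short bars its 2 repeat arrays. Region probes lie between 46.4% and 60.1%, below the mRNA probes in every mouse and close to the noncoding probes.

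The genotypes overlapped in this measure. Region probes were detected at 51.0% ± 3.18 in β-CB1R+/+ (SD, n = 4) and 53.7% ± 5.53 in β-CB1R−/− (SD, n = 3), a difference of 2.74 points (exact permutation test over the 35 splits, two-sided, p = 0.514). The groups overlapped, and the 2 repeat arrays of 1 mouse were further apart than the group means. The difference was −0.45 points without β-CB1R−/− mouse 1, which had the highest share.

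Many region probes gave the same call on every array. Of the 16181, 5311 (32.8%) were detected on all 8 arrays and 4618 (28.5%) on none, against 64.6% and 12.7% of mRNA probes. The remaining region probes were detected on 1 to 7 arrays.

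Detection differed slightly with the length of the region. Probes of the 983 regions up to 1 kb were detected at 48.5% ± 4.05 (SD, n = 7 mice), those of 981 regions of 1 to 10 kb at 53.1% ± 4.00, those of 1441 regions of 10 to 100 kb at 52.8% ± 4.27 and those of 135 regions over 100 kb at 51.1% ± 4.87. Each longer class was above the shortest by 2.60 to 4.64 points (exact sign-flip test over 7 mice, two-sided, p = 0.0156 in each, and 0.0156 adjusted over the 3 tests). All mice were read with the same probes, so this p does not measure the spread over regions or probes. By chromosome, detection was lowest for the 938 probes on chromosome 13, at 45.4% ± 4.32, and highest for the 967 on chromosome 5, at 58.5% ± 4.29.

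The signal of region probes was also lower as a class. The median level over region probes was −2.83, −3.46, −3.31 and −3.54 in β-CB1R+/+ mice 1 to 4 and −2.90, −3.31 and −3.76 in β-CB1R−/− mice 1 to 3. For mRNA probes it lay between −1.32 and −1.12. The region median was lower in 7 of 7 mice, with a mean difference of −2.06 ± 0.26 on the log2 scale (SD, n = 7; exact sign-flip test, two-sided, p = 0.0156). Among probes detected in at least 3 mice the difference was −2.0 ± 0.31. It was −0.95 after normexp background correction. Signal depends on how well each probe binds, which makes this a comparison of 2 sets of probes and not of RNA amounts.

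The genotypes had similar medians, −3.28 ± 0.32 in β-CB1R+/+ (SD, n = 4) and −3.32 ± 0.43 in β-CB1R−/− (SD, n = 3), with p = 0.914 in the exact permutation test, two-sided. Bright region probes were few. The mean level over the mice was above the arrays' 75th percentile for 1006 region probes (6.22%) against 36.8% of mRNA probes, and above 5 for 70 (0.433%) against 2.79%.

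**Figure D2:**
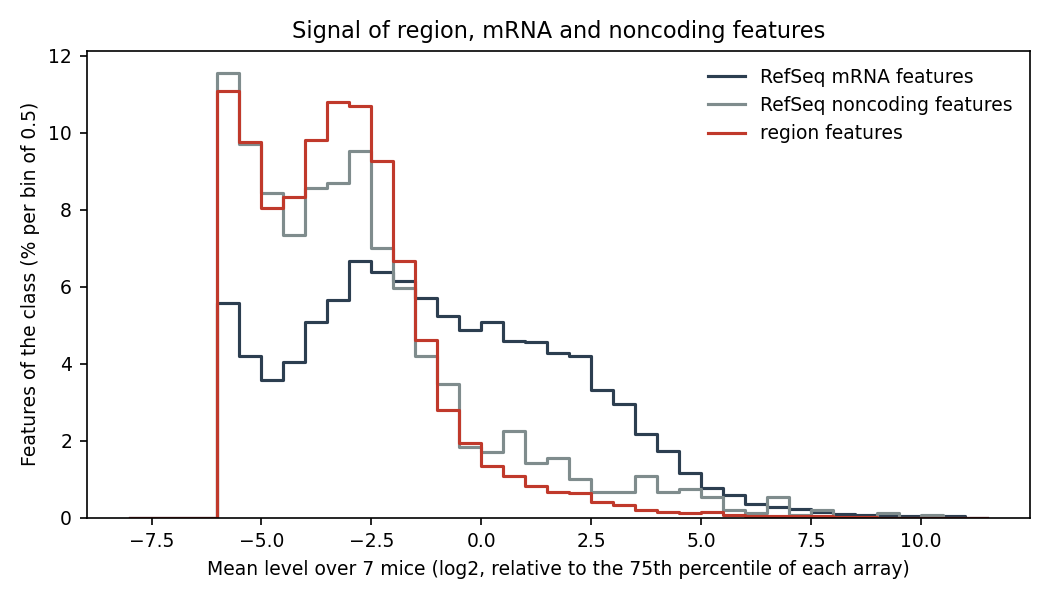
Distribution of the mean level over 7 mice (log2, with each array's 75th percentile at 0, x axis) as the percent of each class of probes in bins of 0.5 (y axis). Region probes follow the noncoding probes up to about the 75th percentile, at 0, and 6.22% of them lie above it, against 36.8% of mRNA probes.

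The 8 brightest region probes were detected on all 8 arrays, with means over the mice of 7.90 to 8.94. The highest was A_30_P01031448 (chr14:78924115-78938125, F), at 9.21, 8.35, 8.85 and 9.04 in β-CB1R+/+ mice 1 to 4 and 9.73, 9.04 and 8.38 in β-CB1R−/− mice 1 to 3. It was lowest in β-CB1R+/+ mouse 2 and β-CB1R−/− mouse 3, the 2 mice in which the acinar marker list was also lowest, at 9.25 and 9.35 against 9.97 to 10.4 elsewhere. Some genes of other cell types were lowest in the same mice, among them the beta cell gene Ins2, at 9.89 and 9.71, and the endothelial gene Kdr, at 3.32 and 3.37. The beta cell list mean was not, at 6.61 and 6.34 against 6.00 to 6.52 elsewhere. Within the acinar list, Cpa1 was highest in β-CB1R+/+ mouse 2, at 11.1. The part of acinar RNA in this probe was not tested. It stood alone on its strand. Of the other 6 F probes of that region, 5 were detected on no array and 1 on 1 array.

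Both strands of chr12:73838608-73862621 were among the brightest, A_30_P01031264 on R with a mean of 8.80 and A_30_P01020570 on F with 8.18. A_30_P01031264 had the smallest spread of the 8, 8.46 to 8.99. The others were A_30_P01023523 (chr6:116092274-116144199, F, 8.67), A_30_P01032580 (chr5:74487385-74497428, F, 8.14), A_30_P01032016 (chr6:83368261-83407280, F, 8.13), A_30_P01026230 (chr2:31714946-31716972, F, 8.0) and A_30_P01020015 (chr17:39982023-39983277, F, 7.90). Differences between the genotypes ran from −0.43 to 0.25 over these 8 probes, and none passed the adjusted threshold (limma).

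Most regions probed on both strands gave signal from both. A strand counted as detected when any of its probes was well above background. Among the 1067 regions, both strands were detected in 73.4%, 77.6%, 78.1% and 78.9% in β-CB1R+/+ mice 1 to 4 and in 85.5%, 76.6% and 74.8% in β-CB1R−/− mice 1 to 3. A single strand was detected in 12.9% to 21.6% and neither in 1.59% to 4.97%. These shares depended on the limit. Their means over the mice, 18.7% and 3.48%, were 4.70% and 0.208% with the positive and significant flag and 5.11% and 0.308% with the negative controls, while both strands were then detected in 95.1% and 94.6%. F alone (9.26% on average over 7 mice) and R alone (9.42%) were about as frequent. The share with both strands was 77.0% ± 2.47 in β-CB1R+/+ and 79.0% ± 5.71 in β-CB1R−/−, with overlapping groups (exact permutation test, two-sided, p = 0.657, and 0.943 adjusted over the 3 classes).

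The pattern was the same on every array for part of the pairs. Both strands were detected on all 8 arrays in 642 regions (60.2%) and neither on any array in 8. In 40 regions (3.75%) 1 strand was detected on all 8 arrays and the other on none, F in 23 and R in 17. Both strands had at least 2 probes in 878 of the regions, and more probes give more chances of a call. Of all 3540 regions, 2101 overlapped another region, so that pairs are not independent of each other.

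**Figure D3:**
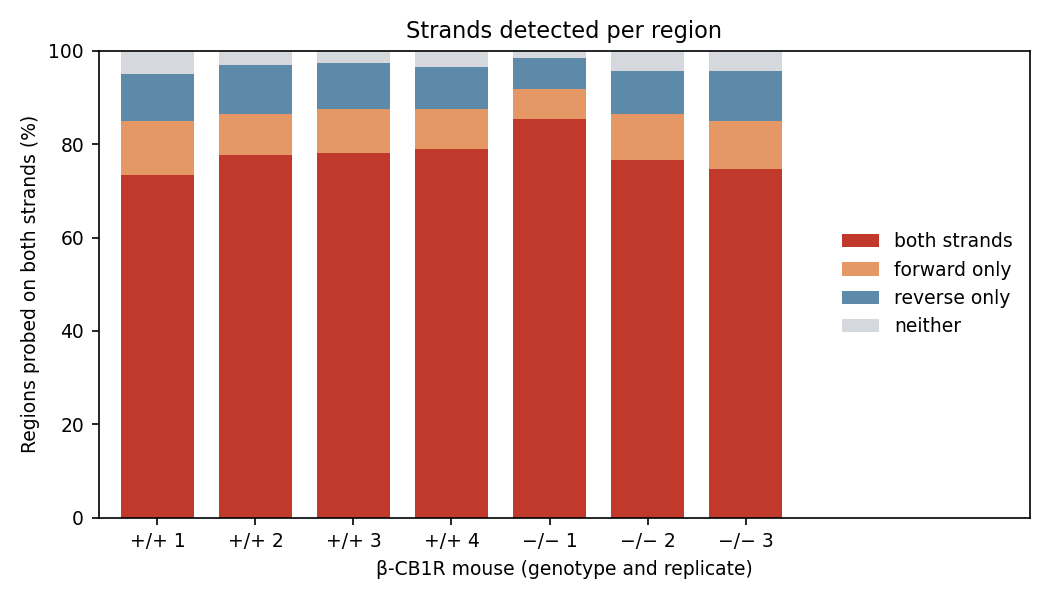
Share of the 1067 regions probed on both strands (percent, y axis) with both strands, F alone, R alone or neither detected, in each mouse (x axis). Both strands were detected in 73.4% to 85.5% of regions, and F alone and R alone took similar shares.

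Of the 5 pairs that were detected on both strands in all 7 mice and had the brightest dimmer strand, chr12:73838608-73862621 (above) came first. Next was chr15:51829797-51844247. On F, A_30_P01027521 read 6.32, 3.47, 5.88 and 6.29 in β-CB1R+/+ mice 1 to 4 and 6.61, 6.80 and 4.02 in β-CB1R−/− mice 1 to 3. On R, A_30_P01019011 read 4.72, 4.57, 4.73 and 4.46, then 4.46, 4.59 and 4.14. The F probe was far lower in β-CB1R+/+ mouse 2 and β-CB1R−/− mouse 3, which again had the lowest acinar list means, while the R probe stayed between 4.14 and 4.73. Ins2 and Kdr were lowest in these mice too, as given above. The part of acinar RNA was not tested.

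In chr17:39960567-39992817, all 4 F and all 5 R probes were detected on all 8 arrays, with means of 6.01 for the brightest F probe, A_30_P01023888, and 3.41 for the brightest R probe, A_30_P01019912. The brightest probes of chr14:115423660-115463160 were A_30_P01028277 on F, at 3.40, and A_30_P01031683 on R, at 4.13. Those of chr5:34696192-34722842 were A_30_P01023896 on F, at 5.79, and A_30_P01027463 on R, at 3.30. None of the probes of these 5 pairs that are named here passed the adjusted threshold between genotypes (limma, differences from −0.43 to 0.32).

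Probes of a region strand resembled each other in their course over the mice, though not closely. Over 10958 pairs of probes on the same region strand, Pearson's r across the 7 mice had a median of 0.49. Over 9257 pairs on opposite strands of a region it was 0.32, and over 5984 pairs of mRNA probes for the same gene 0.51. All these points share the same 7 mice and arrays, and the values are a description. Pairs of unrelated probes were not compared, so how much of r goes with a shared strand is not known. Restricted to probes detected on all 8 arrays the medians were 0.59, 0.34 and 0.59. In 409 of 1489 region strands with at least 3 tested probes (27.5%), all probes differed between the genotypes in the same direction, against 47.1% of 673 genes with at least 3 mRNA probes. Strands and genes were not matched for the number of probes, on which such agreement depends.

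The question of the series, which transcripts differ between β-CB1R−/− and β-CB1R+/+ islets, was put to each probe detected in at least 3 mice. That left out 6825 region probes. Of the 9356 that passed, 5 lacked a value in a mouse and were dropped, so that 9351 (57.8% of all region probes) were tested, in 1 limma fit with 39130 probes in all. Region probes were more variable than mRNA probes. The SD of the difference between the repeat arrays was 0.57 over tested region probes and 0.38 over tested mRNA probes. Between 2 mice of a genotype it was 0.56 to 0.92 for region probes and 0.50 to 0.82 for mRNA probes. The classes were not matched for level.

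Of the region probes, 2 passed the adjusted threshold of 0.05, 0.0214% of those tested, beside 0.11% of all probes tested (43 of 39130) and 0.169% of mRNA probes. At an unadjusted p under 0.05, 123 region probes were higher in β-CB1R−/− mice (1.32%, against 1.67% of all probes) and 179 lower (1.91%, against 1.92%). Neither share exceeded that of the array as a whole. The balance of directions rested on single mice. Without β-CB1R−/− mouse 3, 529 of 762 such region probes were higher, and without β-CB1R+/+ mouse 1 227 of 372, while without β-CB1R−/− mouse 1 it was 90 of 398. The groups did not overlap for 276 region probes (2.95%), against 4.12% of all probes. The median difference over tested region probes was 0.00 and that over all probes −0.02.

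The probe that rose was A_30_P01019828, on F of chr12:81217572-81233910. It read −2.66, −2.89, −2.71 and −2.62 in β-CB1R+/+ mice 1 to 4 and −1.09, −0.56 and −0.37 in β-CB1R−/− mice 1 to 3. Every β-CB1R−/− mouse was above every β-CB1R+/+ mouse, and the probe was detected on all 8 arrays. The difference was 2.05 ± 0.22 (log2, SE; 4.13-fold, limma adjusted p = 0.0259), and 1.15 after normexp correction (adjusted p = 0.0332). The other 9 F probes of the region were all tested, and their differences lay between −0.56 and 0.36. None of these, and none of the 8 R probes tested, had an unadjusted p under 0.05 for genotype.

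The probe that was lower was A_30_P01022070, on R of chr7:89433125-89464275. It read −2.44, −2.77, −3.06 and −2.69 in β-CB1R+/+ mice and −4.81, −4.71 and −4.66 in β-CB1R−/− mice. It was well above background on all 4 β-CB1R+/+ arrays and on none of the 4 β-CB1R−/− arrays, where its level is only a limit. Measured against the lowest signal well above background on each of those arrays, it was at least 2.10-fold lower (limma adjusted p = 0.0212). The probe passed the filter through its β-CB1R+/+ values alone and its p uses levels not above background in the other group. Without a filter on dim probes the adjusted p was 0.0515, and after normexp correction the difference was −0.53 (adjusted p = 1.0), smaller than this bound. Of the 3 other probes on this strand, 2 were detected on no array and the other differed by −0.17 ± 0.50 (SE). Both calls depended on single mice. Without β-CB1R+/+ mouse 2, 3 or 4 or β-CB1R−/− mouse 2 or 3 no region probe passed. Without β-CB1R+/+ mouse 1 another probe alone passed, and without β-CB1R−/− mouse 1 there were 2, of which 1 is named above.

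**Figure D4:**
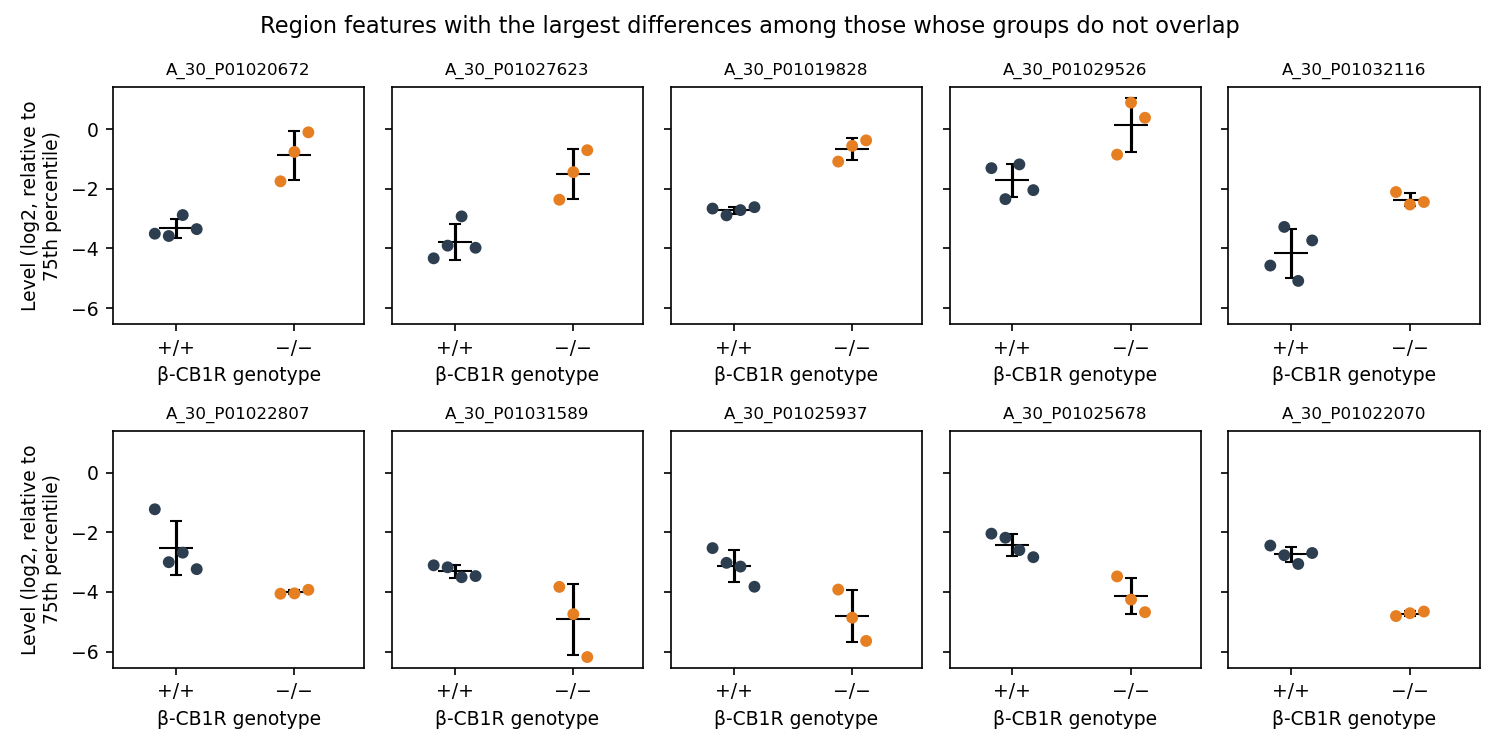
Level (log2, relative to the 75th percentile, y axis) of the 5 region probes with the largest differences upward (upper row) and the 5 with the largest downward (lower row) among those whose groups do not overlap, by β-CB1R genotype (x axis). Each point is a mouse, and bars give the mean and SD of 4 β-CB1R+/+ and 3 β-CB1R−/− mice. A_30_P01019828 and A_30_P01022070 passed the adjusted threshold, and the other 8 did not.

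Among probes whose groups do not overlap, the largest differences upward were on R of chrX:18734106-18744367, a region probed on that strand alone. A_30_P01020672 read −3.50, −3.58, −2.88 and −3.35 in β-CB1R+/+ mice 1 to 4 and −1.75, −0.76 and −0.10 in β-CB1R−/− mice 1 to 3. The difference was 2.46 ± 0.39 (SE), with a limma adjusted p of 0.146. A_30_P01027623 differed by 2.28 ± 0.46 (adjusted p = 0.402) and the remaining probe, A_30_P01027310, by 1.78 ± 0.31 (adjusted p = 0.227). All 3 probes of the region thus differed in the same direction, each detected on all 4 β-CB1R−/− arrays and on 1 to 3 of the 4 β-CB1R+/+ arrays. Levels on the remaining β-CB1R+/+ arrays are only limits, and the 3 β-CB1R−/− mice alone were enough to pass the filter. After normexp correction A_30_P01020672 differed by 1.23 (limma adjusted p = 0.410) and A_30_P01027623 by 0.79.

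The other 2 named upward were A_30_P01029526 on F of chr2:67411703-67412293, with a difference of 1.86 ± 0.46 (SE; limma adjusted p = 0.831), and A_30_P01032116 on F of chr16:21794415-21815365, with 1.81 ± 0.42 (adjusted p = 0.726). On these strands every tested probe differed the same way. On the chr2 strand the 3 probes were higher by 0.96 to 1.86, and on the chr16 strand the 5 probes were higher by 0.42 to 1.81, 4 of them at an unadjusted p under 0.05. The single R probe tested in the chr16 region differed by −0.13. A_30_P01032116 was detected on 2 of the 4 β-CB1R+/+ arrays, and its levels on the others are only limits. After normexp correction its difference was 0.51, and that of A_30_P01029526 was 1.31.

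The other 4 named downward were dim. A_30_P01025678 (chr10:117021051-117038683, F) was detected on all 4 β-CB1R+/+ arrays and 1 β-CB1R−/− array and differed by −1.72 ± 0.33 (SE; limma adjusted p = 0.349). Its levels on the remaining β-CB1R−/− arrays are only limits, and after normexp correction its difference was −0.53. A_30_P01022807 (chr8:26866152-26872502, R) was at least 2.15-fold lower (adjusted p = 0.999), A_30_P01025937 (chr16:50715231-50841124, F) at least 1.61-fold lower (adjusted p = 0.914) and A_30_P01031589 (chr5:77239012-77271614, F) at least 1.42-fold lower (adjusted p = 0.999). None of these 3 was detected on a β-CB1R−/− array, and the last 2 were detected on 3 of the 4 β-CB1R+/+ arrays. All 3 passed the filter through their β-CB1R+/+ values alone, and their p uses levels not above background in the other group. After normexp correction they differed by −0.45, −0.41 and −0.34 in this order, smaller than these bounds. Neighbouring probes did not fall as far. The other tested F probes of the chr10 region differed by −0.38 to −0.06, and the other tested F probe of the chr16 region by 0.35. The chr8 and chr5 strands had 1 tested probe each.

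In 9 of 1489 region strands with at least 3 tested probes, every tested probe had an unadjusted p under 0.05 for genotype (0.604%), against 2 of 673 genes with at least 3 mRNA probes (0.297%). Here too strands and genes were not matched for the number of probes. No such probe passed the adjusted threshold, and the strands named next were picked with their values known. R of chrX:18734106-18744367, described above, had the largest median difference of the 9, at 2.28. Next was F of chr12:110845020-110850870, with a median of 1.97, where all 5 probes were higher in β-CB1R−/− mice, by 1.03 to 2.81. A_30_P01032261 read 0.56, −2.31, −2.74 and −3.75 in β-CB1R+/+ mice 1 to 4 and 0.11, 1.14 and 1.00 in β-CB1R−/− mice 1 to 3. β-CB1R+/+ mouse 1 lay within the β-CB1R−/− range, so the groups overlapped. The wider locus, chr12:110842149-110988678, had 10 regions and 52 tested probes with a median difference of −0.21, and 15 of the 52 were higher.

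In the other direction, R of chr1:160888257-160910594 was lower at all 3 probes, with differences of −1.41 to −1.19. A_30_P01030585 read 1.22, 1.27, 1.19 and 0.67 in β-CB1R+/+ mice 1 to 4 and −0.31, −0.95 and 0.28 in β-CB1R−/− mice 1 to 3 (difference −1.41 ± 0.31, SE; limma adjusted p = 0.621). The groups were apart on this probe. Markers of stellate cells and fibroblasts, a list of 4 genes all detected on every array, had a mean of 0.81 to 1.19 in β-CB1R−/− mice and of −0.80 to −0.20 in β-CB1R+/+ mice 1 to 3, with 2.33 in β-CB1R+/+ mouse 4. Their part in the region probes' differences was not tested.

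Regions within 10 kb of each other formed 1785 loci with a tested probe. Loci of 11 regions were the largest, 4 in number, and the 3 with the most tested probes were chr1:138442536-138632310, chr13:94180737-94203935 and chr8:19678750-20038750. Their 41, 30 and 26 tested probes had median differences between genotypes of 0.00, 0.08 and −0.07. At an unadjusted p under 0.05 there were 1, 0 and 0 such probes. In none of these loci did most probes pass even the unadjusted limit.

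The second comparison used the level of Fos in each mouse as a covariate, with genotype as a term. Fos read −0.82, −1.59, 6.31 and 5.34 in β-CB1R+/+ mice 1 to 4 and 0.75, 5.84 and −0.71 in β-CB1R−/− mice 1 to 3. The mice thus fell apart into 4 values from −1.59 to 0.75 and 3 from 5.34 to 6.31, with a gap of 4.59, and both genotypes had mice on each side. No correlation across the mice is given for this reason, and 3 or 4 mice on a side are too few to test the relation within it. A slope is the change of a probe's log2 level per log2 unit of Fos.

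Of the 9351 region probes tested, 6 passed the adjusted threshold of 0.05 (0.0642%), beside 0.0537% of all probes tested (21 of 39129, Fos itself left out). All 6 rose with Fos. At an unadjusted p under 0.05, 169 region probes were higher with Fos (1.81%, against 1.64% of all probes) and 274 lower (2.93%, against 2.37%). These shares were close to those of the whole array. The balance moved with the setting. Higher with Fos were 126 of 256 such region probes after normexp correction, 261 of 508 with the deposited Z scores and 195 of 2071 with the acinar list mean as a term. It was 504 of 807 without β-CB1R+/+ mouse 1, 110 of 649 without β-CB1R−/− mouse 3 and 1400 of 1707 with the replicate number as a block. The list mean of the other immediate-early genes moved with Fos. It was 1.62 to 2.50 in β-CB1R+/+ mice 3 and 4 and β-CB1R−/− mouse 2 and −0.89 to −0.28 in the other mice. Not every gene of the list did so. Egr3 read −3.04 to −2.24 in those mice with high Fos and −3.01 to −2.22 in the others. Fosl1 read −3.96 to −2.74 and −4.74 to −3.3, but was detected on only 2 arrays, so most of its values are limits.

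The smallest p belonged to A_30_P01028538, on R of chr19:5771425-5848475. It read 1.22, 1.1, 5.56 and 5.33 in β-CB1R+/+ mice 1 to 4 and 1.29, 5.12 and 1.13 in β-CB1R−/− mice 1 to 3. The 3 mice with high Fos were all above 5, and the others lay between 1.1 and 1.29. The slope was 0.62 ± 0.04 (SE; limma adjusted p = 0.00906). The other R probe of the region was detected on no array. The 10 F probes, all tested, had slopes from −0.10 to 0.11, and none passed.

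A shorter region on the same strand, chr19:5834117-5835940, lies inside it, and its probes may bind the same RNA. A_30_P01025818 read −2.10, −3.95, 1.39 and 0.75 in β-CB1R+/+ mice and −1.75, 1.39 and −2.57 in β-CB1R−/− mice (slope 0.60 ± 0.05, SE; limma adjusted p = 0.0282). It was not detected in β-CB1R+/+ mouse 2. A_30_P01019037 had a slope of 0.57 ± 0.06 (adjusted p = 0.0493). The remaining probe, A_30_P01029006, had 0.40 ± 0.05 and missed the threshold (adjusted p = 0.108). All 3 probes were higher in each of the 3 mice with high Fos than in the other 4.

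The other 3 probes past the threshold were in regions apart from these. A_30_P01027813, on F of chr10:82074600-82085425, read −2.44, −3.12, 2.47 and 0.35 in β-CB1R+/+ mice and −2.72, 1.50 and −3.31 in β-CB1R−/− mice (slope 0.66 ± 0.06, SE; limma adjusted p = 0.0461). A_30_P01020856, on F of chr10:96098058-96098623, read −3.28, −5.20, 0.87 and −0.73, then −3.13, 0.63 and −4.43 (slope 0.68 ± 0.07, adjusted p = 0.0461). A_30_P01029091, on R of chr8:129102060-129109035, read −3.26, −3.56, −0.33 and −0.01, then −3.41, 0.14 and −3.61 (slope 0.50 ± 0.05, adjusted p = 0.0493). Each separated the 3 mice with high Fos from the other 4. A_30_P01020856 was not detected in 3 of those 4 mice and A_30_P01029091 not in 2, where their levels are only limits.

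Neighbouring probes of these regions had slopes in the same direction. The second tested probe of chr10:82074600-82085425 had 0.60, and the other 2 of chr10:96098058-96098623 had 0.53 and 0.15. On R of chr8:129102060-129109035 all 4 probes had positive slopes, from 0.27 to 0.81, while the only F probe tested had 0.04. The 4 had an unadjusted p under 0.05 (limma), but 1 of them passed the filter only through the mice with high Fos. This probe, A_30_P01031663, had the slope of 0.81. It was detected on the 4 arrays of the 3 mice with high Fos, at 0.10, 0.31 and 0.56, and on no other. Its levels in the other 4 mice are only limits, so that its slope has no settled size and its p rests on those limits.

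**Figure D5:**
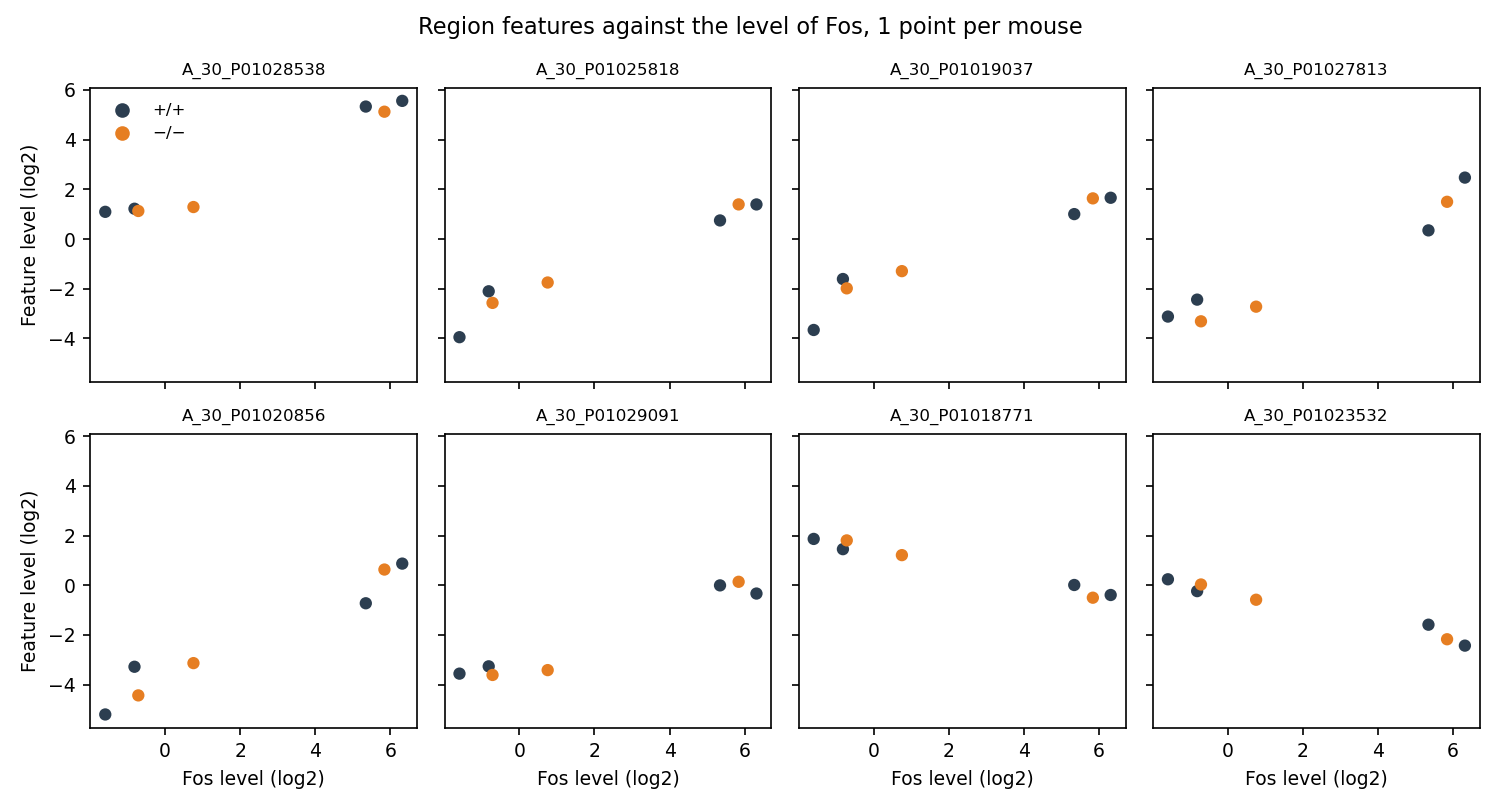
Level of 8 region probes (log2, relative to the 75th percentile, y axis) against the level of Fos (same scale, x axis), 1 point per mouse, by β-CB1R genotype. The first 6 passed the adjusted threshold and rose with Fos, and A_30_P01018771 and A_30_P01023532, with negative slopes, did not pass. The Fos levels form 2 separate clusters, with no mouse between 0.75 and 5.34.

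No region probe passed with a negative slope here, but some did under other settings. With Fos alone 12 of the 16 that passed rose and the rest fell, and risers were 9 of 11 with the immediate-early mean, 13 of 20 with the intensity trend, 8 of 13 with detection required on all arrays and 12 of 17 after normexp correction. A_30_P01018771 passed with a negative slope under each of these, at limma adjusted p = 0.00786 to 0.0350. The 5 with the smallest p came from 3 region strands. On R of chr13:48620882-48643532, A_30_P01018771 read 1.45, 1.86, −0.39 and 0.01 in β-CB1R+/+ mice 1 to 4 and 1.21, −0.50 and 1.80 in β-CB1R−/− mice 1 to 3. It was lower in each of the 3 mice with high Fos than in the rest, with a slope of −0.29 ± 0.03 (SE; limma adjusted p = 0.0588). A_30_P01025102 and A_30_P01030953 of the same strand had slopes of −0.29 and −0.27, and the remaining tested probe −0.07. On F of that region the 6 tested probes had slopes of −0.03 to 0.01.

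A_30_P01023532, on R of chr7:134369091-134376366, had a slope of −0.31 ± 0.03 (SE; limma adjusted p = 0.0593). The other 4 probes of its strand had −0.26 to 0.02. A_30_P01030677, on F of chr4:135911688-135915355, had −0.29 ± 0.04 (adjusted p = 0.108), and the other 2 probes of this strand −0.33 and −0.31.

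The calls for Fos rested on few mice. Without β-CB1R+/+ mouse 2 or 3 or β-CB1R−/− mouse 2 no region probe passed. Without β-CB1R+/+ mouse 4 or β-CB1R−/− mouse 1 or 3 it was 1, and without β-CB1R+/+ mouse 1 it was 5. With the acinar list mean as a further term 1 of the 6 passed, although their slopes were 0.52 to 0.66, beside 0.50 to 0.68 without that term. With Fos alone, without genotype, 16 region probes passed. After normexp correction all 6 passed with slopes of 0.30 to 0.65, and the slope of A_30_P01020856 was 0.41 and that of A_30_P01029091 0.30.

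Among the 4 region probes with the largest spread of measured levels over mice, those not above background included, the only one outside the regions named for Fos was A_30_P01031842, on F of chr5:15146475-15170100. It read −1.90, −0.57, −0.74 and 0.49 in β-CB1R+/+ mice 1 to 4 and 1.69, −5.69 and −3.29 in β-CB1R−/− mice 1 to 3 (SD 2.47), and was not detected in β-CB1R−/− mouse 2. The highest and the lowest mouse were both β-CB1R−/−. The other 3 probes of this strand followed the same course, with their highest value in β-CB1R−/− mouse 1 and their lowest in β-CB1R−/− mouse 2. Neither the difference between genotypes (−1.75 ± 1.52, SE; limma adjusted p = 0.999) nor the Fos slope (−0.12 ± 0.25, adjusted p = 0.957) passed.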

How the data were processed

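Total RNA (200 ng, Cy3) from islets of 4 β-CB1R+/+ and 3 β-CB1R−/− mice was hybridised to 8 Agilent 1-colour arrays. The authors deposited spot intensity from Feature Extraction 11.5.1.1, background-subtracted and detrended within an array and not scaled between arrays, and a score for each spot, the Z score of the log10 signal on its array. Group came from the sample labels.

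Processed intensities were scaled to the 75th percentile of their array and put on the log2 scale. Spots flagged as non-uniform or population outliers were left out, and repeat arrays averaged. Probes detected (well above background) in 3 or more of the 7 mice were compared with limma 3.58.1 in R 4.3.3 (lmFit, eBayes, two-sided, Benjamini-Hochberg over 39130 probes), for genotype and for the slope on Fos with genotype as a term. The pipeline was tested on simulated data. The number of arrays limits the precision. Region members and lists were chosen with earlier results of these data known. Named region probes are those past the adjusted threshold, the 5 largest rises and falls without overlap, the 8 brightest, the 5 smallest p for the Fos slope in each direction, 5 strand pairs, 3 loci and the 4 largest spreads. Probes named with their whole region strand were added after their values were seen. The fold of a probe above background on no array of a group is a lower bound, the mean of the other group against, per array, the higher of the lowest signal well above background and the probe's own. Alternatives were normexp correction (offset 50, on median signals), quantile scaling, the 75th percentile of mRNA probes, the deposited Z scores, other filters, a replicate block, an intensity trend, each repeat array by itself, the methods' t-test, other Fos terms, other detection limits and each mouse left out. Sequences and gene names of regions were not examined, since the genome tables used here are of another build.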

Additional observations from a re-analysis of the deposited data

Results flagged for a closer look

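In 2 of 41 sets of 4 β-CB1R+/+ values examined, 1 mouse stood far from the other 3. Chance flags about 1 in 20 such sets, or 2.05 of 41. In both sets it was β-CB1R+/+ mouse 2. A_30_P01027521 (chr15:51829797-51844247, F) read 3.47 there and 5.88 to 6.32 in the others, and the acinar marker list mean was 9.25 there and 9.97 to 10.2 in the others. The beta cell gene Ins2 was 9.89 there and 10.1 to 10.5 in the others. A_30_P01019912 (chr17:39960567-39992817, R) read 3.08 there and 3.39 to 3.40 in the others.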

How the results depend on the processing

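The 2 region probes that passed between genotypes became 1 with array 2-1 alone, the intensity trend, normexp correction, quantile scaling (another probe) or with detection required on all 8 arrays. They became 0 (limma) without a filter on dim probes, with the deposited Z scores and by the methods' t-test after adjustment, with 468, 419 and 247 region probes at an unadjusted p under 0.05. The 6 that passed for Fos became 2 with the 75th percentile of mRNA probes, 1 without a filter or with the acinar mean, 11 with the deposited Z scores or the immediate-early mean without Fos, 13 with detection required on all arrays, 16 with Fos alone, 17 with normexp correction (12 of them rising) and 20 with the intensity trend. Leaving out 1 mouse gave 0 to 2 region probes for genotype and 0 to 5 for Fos (limma), with 194 to 762 and 265 to 807 at an unadjusted p under 0.05. With the replicate block both counts were 0, with 445 and 1707 at an unadjusted p under 0.05. The deviations of same-numbered mice from their group means had correlations over probes of 0.42, −0.27 and −0.06. For differently numbered mice of the 2 groups these ran from −0.37 to 0.50, so the numbers were not taken as pairs. The causes of these changes were not tested. The slide block was not run, since there was 1 slide.

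Region probes were detected less often than mRNA probes under each limit. With only the brightest probe of each region strand, the share was 2.77 points higher. That choice takes the best of up to 10 probes, while all mRNA probes were kept, and its part in the turn was not tested. With all region probes, leaving out a mouse gave −25.2 to −24.2 points for the gap to mRNA probes and −0.45 to 4.50 for the difference between genotypes. For the median level it gave −2.12 to −2.0 against mRNA probes and −0.25 to 0.18 between genotypes. It gave 76.6% to 78.6% for regions with both strands detected, which was 95.1% with the positive and significant flag and 94.6% with the negative controls as the limit.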
